A study of Homo sapiens with 8 samples.

Results

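Alternative promoters were described in K562 cells, a human erythroleukaemia line that carries the BCR-ABL1 fusion. A promoter stands here for a group of annotated transcripts whose first exons overlap, and promoters are numbered from 1 at the most upstream end of the gene. The genes were those with reference transcripts whose 5′ ends lie 1000 nt or more apart and whose first exons do not overlap, within 1 locus. Of 23407 gene symbols on chromosomes 1 to 22 and X, 1949 had such a structure. They were then selected on measured values, namely a mean FPKM of 1 or more over all 8 libraries, which left 1018 genes with 2499 promoters. FPKM scales fragments by transcript length and by library size, so values can be compared between transcripts of different length. The genes just inside the threshold were ACTR3C (mean 1.00 FPKM) and ZNF345 (1.01), and those just outside were LOC374443 (0.998) and IKZF2 (0.977). The main promoter of a gene is the one with the highest mean FPKM, so that its high share is a result of the choice and is given as a description.

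A gene with several promoters can start its transcript at different places, which changes the 5′ untranslated region and often the first coding exon. The choice of promoter is a common way to give a tissue its own form of a housekeeping protein. Promoters rich in CpG dinucleotides typically drive broadly expressed genes, and CpG-poor ones more often drive tissue-restricted genes.

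The cells carried a transgene for the splicing factor SF3B1, either wild type (WT) or with the K700E substitution, which recurs in myelodysplastic syndromes, and the study followed expression and splicing. Uninduced cells (WT_uninduced, K700E_uninduced) carried the same transgene as the cells given doxycycline at 1 ug/ml for 48 h (WT_induced, K700E_induced). Each of the 4 groups had 2 libraries of RNA depleted of ribosomal RNA, and all cells were K562. Nothing in the labels says that the libraries of a group came from separate cultures, so p-values measure the spread between these libraries, which may be technical. Nor do the labels say whether a line was 1 clone.

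SF3B1 itself lay between 27.3 and 39.5 FPKM over the libraries with no separation of induced from uninduced cells, so induction is known from the labels only. The K562 markers HBG1, GATA1 and KLF1 were above 0 in every library (lowest values 1030, 157 and 19.8 FPKM). TAL1 was listed at 0 in 3 libraries. Of 16 markers of other cell types, MS4A1, CD14, MPO and ALB were at 0 in all libraries, while CD3D, CD68 and EPCAM, markers of T cells, macrophages and epithelium, were above 0 in all (lowest 3.87, 3.26 and 8.17 FPKM). The epithelial keratins KRT8 (lowest 220.4) and KRT18 (lowest 132 FPKM) were high. Each library listed 43497 reference transcripts, and its coverage per FPKM, the only sign of depth, was 3.28 to 4.78.

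Sequences just upstream of a few of these promoters show how different the DNA of a gene's alternative starts can be. They are 80-base windows from RefSeq's promoter table (build GRCh38.p14), printed 5′ to 3′ on the strand of the gene, each taken as near to the start as annotated exons allow. Capitals mark CpG dinucleotides. HMGA1 is shown as a gene with a steady main promoter. GATA2 had the same highest promoter in the 7 libraries where its reference transcripts were above 0. GAB2 and CBX5 are shown as genes whose highest promoter differed between libraries. DNMT3A is from the textbook genes and RUNX1 from the erythroid genes described below.
HMGA1 promoter 1: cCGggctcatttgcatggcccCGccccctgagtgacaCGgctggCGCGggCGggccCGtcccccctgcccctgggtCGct
HMGA1 promoter 2: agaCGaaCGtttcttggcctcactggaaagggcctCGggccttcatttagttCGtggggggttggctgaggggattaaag
GATA2 promoter 1: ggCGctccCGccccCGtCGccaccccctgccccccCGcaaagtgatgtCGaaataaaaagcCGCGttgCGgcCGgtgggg
GATA2 promoter 2: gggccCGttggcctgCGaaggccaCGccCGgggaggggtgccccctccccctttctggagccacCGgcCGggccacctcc
GAB2 promoter 1: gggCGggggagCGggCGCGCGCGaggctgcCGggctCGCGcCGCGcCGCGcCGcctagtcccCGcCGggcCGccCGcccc
GAB2 promoter 2: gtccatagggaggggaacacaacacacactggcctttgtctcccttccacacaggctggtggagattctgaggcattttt
CBX5 promoter 1: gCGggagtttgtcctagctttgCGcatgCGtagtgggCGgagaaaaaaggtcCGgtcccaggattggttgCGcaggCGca
CBX5 promoter 2: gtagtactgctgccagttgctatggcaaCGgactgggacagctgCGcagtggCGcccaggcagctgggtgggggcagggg
DNMT3A promoter 2: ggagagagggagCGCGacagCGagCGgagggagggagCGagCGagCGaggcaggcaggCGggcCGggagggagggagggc
DNMT3A promoter 3: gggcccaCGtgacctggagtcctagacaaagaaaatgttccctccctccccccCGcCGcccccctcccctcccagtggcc
RUNX1 promoter 2: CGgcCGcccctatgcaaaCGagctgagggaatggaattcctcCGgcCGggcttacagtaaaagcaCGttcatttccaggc

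The HMGA1 windows, at chr6:34236793-34236872 and chr6:34238711-34238790 on the forward strand, held 8 and 4 CpGs. The main promoter of HMGA1, which encodes an architectural chromatin protein, is promoter 1, and its whole 250 bases before the start had a GC content of 74.8% against 51.2% for promoter 2. The windows of GATA2, a haematopoietic transcription factor, at chr3:128493202-128493281 and chr3:128488531-128488610 on the reverse strand, held 10 and 6 CpGs, the second being the main promoter. GAB2, an adaptor of BCR-ABL signalling, has the main promoter with the fewest CpGs of those shown. Its windows at chr11:78417823-78417902 and chr11:78341920-78341999 on the reverse strand held 18 in promoter 1 and 0 in the main promoter 2. For CBX5, which encodes heterochromatin protein HP1-alpha, the windows at chr12:54280134-54280213 and chr12:54259593-54259672 on the reverse strand held 7 in the main promoter 1 and 3 in promoter 2. The windows of the DNA methyltransferase gene DNMT3A, at chr2:25341926-25342005 and chr2:25252316-25252395 on the reverse strand, held 9 in promoter 2 and 3 in promoter 3, which starts the shorter DNMT3A2 form. The RUNX1 window lies at chr21:34888700-34888779 on the reverse strand and belongs to the proximal promoter of that haematopoietic transcription factor, with 6 CpGs.

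Across the genes, main promoters were richer in CpG than the alternatives they were listed with. A table entry was matched to 1404 promoters of 788 genes, 591 of them main and 813 not. The CpG observed-to-expected ratio, the number of CpGs relative to that expected from the C and G content of the 250 bases before the start, had a median of 0.746 in main promoters and 0.529 in the others, against 0.558 over all 35116 promoters of the table. The median GC content was 65.2% and 59.2%, against 58% over the table. In promoters listed at 0 in all 8 libraries (362 matched) the median ratio was 0.445. Within genes, 371 had both the main and the second promoter matched, the second being the next highest by mean FPKM. The main one had the higher CpG ratio in 223 of them and the lower in 147. The second promoter can be one listed at 0 in all libraries, since in 297 of the 1018 member genes 1 promoter alone was ever above 0. Where the same promoter was highest in all 8 libraries the main one had the higher CpG ratio in 60 of 82 genes and the higher GC content in 55. In genes whose main promoter was at 5% or less in a library and at 95% or more in another, it had the higher GC content in 98 of 188. These are descriptions over genes that share libraries, and no test was made.

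**Figure D1:**
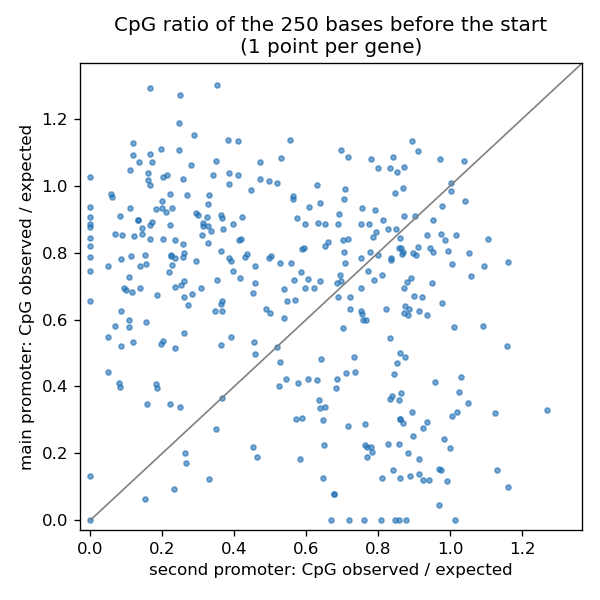
CpG observed-to-expected ratio of the 250 bases before the start in the second promoter (x axis) and the main promoter (y axis), 1 point per gene (371 genes), with the line of equality. The main promoter lies above the line in 223 genes and below it in 147. The second promoter can be one listed at 0 in all libraries.

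Motifs were searched on both strands of the same 250 bases. TATAAA, the core of the TATA box, was in 5.58% of main promoters, 9.84% of the others and 10.7% of the whole table. CCAAT was in 32.7%, 28.5% and 32.0%, and GATAAG, a form of the GATA factor site, in 4.57%, 6.89% and 5.65%. Among the main promoters that were highest in all 8 libraries (130 matched), TATAAA was in 3 and GATAAG in 9. A match is a run of letters and not a bound site.

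In most cases a gene was listed with a single promoter in a library. Of 8144 gene and library pairs, the gene was at 0 in 1134. In 6015 of the 7010 others, (85.8%), 1 promoter held 100% of the gene's reference FPKM, and in 995 at least 2 promoters were above 0. Of 17185 promoter shares, 9141 were 0 and only 27 lay between 0 and 10%. The same concentration was seen for single transcripts, since in 80.5% of those 7010 pairs 1 transcript held the whole gene. The FPKM were estimated by dividing reads that overlapping transcripts share, so a share of 0 or 100% is an estimate and not a count of 5′ ends. At 10 FPKM or more, the median half-width of the deposited interval for a transcript was 6.54% of its value. Of 22898 transcript values listed at 0, however, 993 had an upper bound of 0 and all others an interval that reached above 0. Values are of reference transcripts unless said otherwise, and a gene listed at 0 on these can still have transcripts that were assembled in that library. Where assembled transcripts are said to be added, only spliced ones whose first exon overlaps a reference first exon of the gene are counted.

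Which promoter held the gene often differed from one library to the next. Of the 524 genes above 0 in all 8 libraries, 215 (41.03%) had the same highest promoter in each, and 138 of these had it at 100% throughout. By contrast, 520 of the 1018 genes had a main promoter at 5% or less in at least 1 library and at 95% or more in another. In 297 genes 1 promoter alone was ever above 0, and 623 of the 2499 promoters were at 0 in all libraries. Only SEPTIN5 and TRAF5 had at least 2 promoters at 10% or more in all 8 libraries, and the 2 promoters of TRAF5 were listed with the same value as each other in each library, at a mean of 0.543 FPKM.

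Libraries of the same group shared their highest promoters about as often as libraries of different groups. The same promoter was highest in a mean of 71.9% of genes between libraries of a group (4 pairs, 70.1% to 73.0%) and in 72.9% between libraries that shared neither group nor replicate number (12 pairs, 70.2% to 74.7%). In a single library the gene's main promoter was the highest in 79.8% to 82.4% of the genes above 0.

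Agreement was higher among the genes of the highest levels. Of the 43 genes at a mean of 100 FPKM or more, all above 0 in every library, 31 (72.1%) had the same highest promoter in all 8. Between 20 and 100 FPKM this held for 47.6% of genes above 0 in all libraries, between 5 and 20 for 32.1%, and between 1 and 5 for 36.4%. A main promoter at both extremes was found in 2.33% of genes at 100 FPKM or more in 34.9% between 20 and 100, in 60.2% between 5 and 20 and in 56.1% between 1 and 5.

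**Figure D2:**
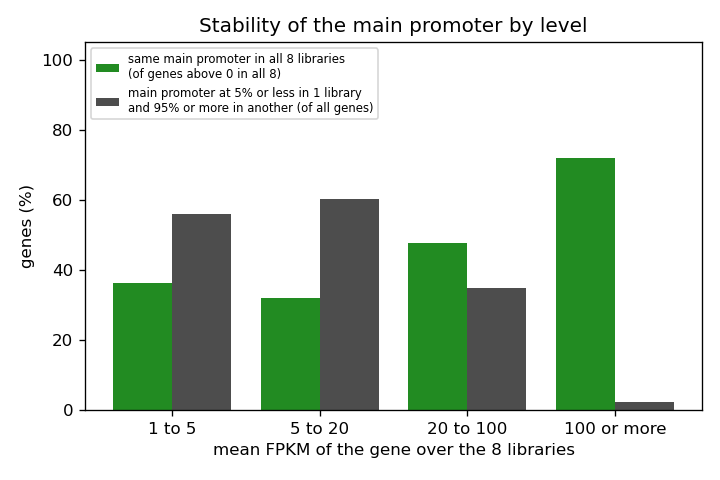
Share of genes (y axis, %) by mean FPKM of the gene (x axis). Green bars give genes with the same highest promoter in all 8 libraries, among genes above 0 in all 8, and grey bars give genes whose main promoter was at 5% or less in a library and at 95% or more in another, among all genes. The green bar reaches 72.1% at 100 FPKM or more, where the grey bar is at 2.33%.

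Main promoters were upstream about as often as downstream. The main promoter was the most upstream in 449 of 1018 genes. Among the 704 genes with 2 promoters it was the upstream one in 349 and the downstream one in 355. The median distance between main and second promoter was 8412 nt, where the second can be a promoter listed at 0 in all libraries. Where the distance was under 1000 nt (possible in genes with 3 or more promoters), 26.3% of the 38 genes above 0 in all libraries kept the same highest promoter. The share was 41.5% at 1000 to 5000 nt, 45.0% at 5000 to 20000 nt and 40.8% at 20000 nt or more. The longest distances were in ASTN2 (727775 nt), RABGAP1L, ANK3 and FOXP1. ASTN2, a neuronal glycoprotein gene, was low (mean 3.10 FPKM) and its promoter 2 held 100% in all 8 libraries. The most promoters, 8 each, were in PLEC, which encodes the cytoskeletal linker plectin, and TCF4, which encodes a basic helix-loop-helix transcription factor. PLEC was listed on promoters 1, 2, 4, 6 and 8, and TCF4 on promoters 2, 3, 4 and 7. Of the 4 genes with 7 promoters, SEPT9 and CREM had the highest mean FPKM.

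The 6 genes with the highest level were mostly fixed on 1 promoter. ALDOA, the glycolytic enzyme aldolase A, had a mean of 1188 FPKM, and promoter 2 (chromosome 16 of hg19, start 30076994) was at 100% in 7 libraries and 80.7% in WT_uninduced replicate 2, where promoter 1 had 287 FPKM. HMGA1 (mean 1123 FPKM), the glycolytic enzyme gene ENO1 (650.1) and the ribosomal protein gene RPL32 (369.6) used promoter 1 at 100% in all libraries. In WT_induced replicate 2 an assembled transcript of RPL32 with a first exon outside the reference was also listed, at 1036 FPKM. KRT8 (363.1 FPKM) used promoter 3 at 100% in 7 libraries and 84.7% in WT_uninduced replicate 2. EIF5A, which encodes a translation factor, was the exception. Its promoter 2 held 77.1% and 64.7% in K700E_induced, 43.5% and 44.1% in K700E_uninduced, 74.2% and 37.5% in WT_induced, and 58.8% and 0% in WT_uninduced. Its 4 promoters lie close together, the main and the second 538 nt apart.

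**Figure D3:**
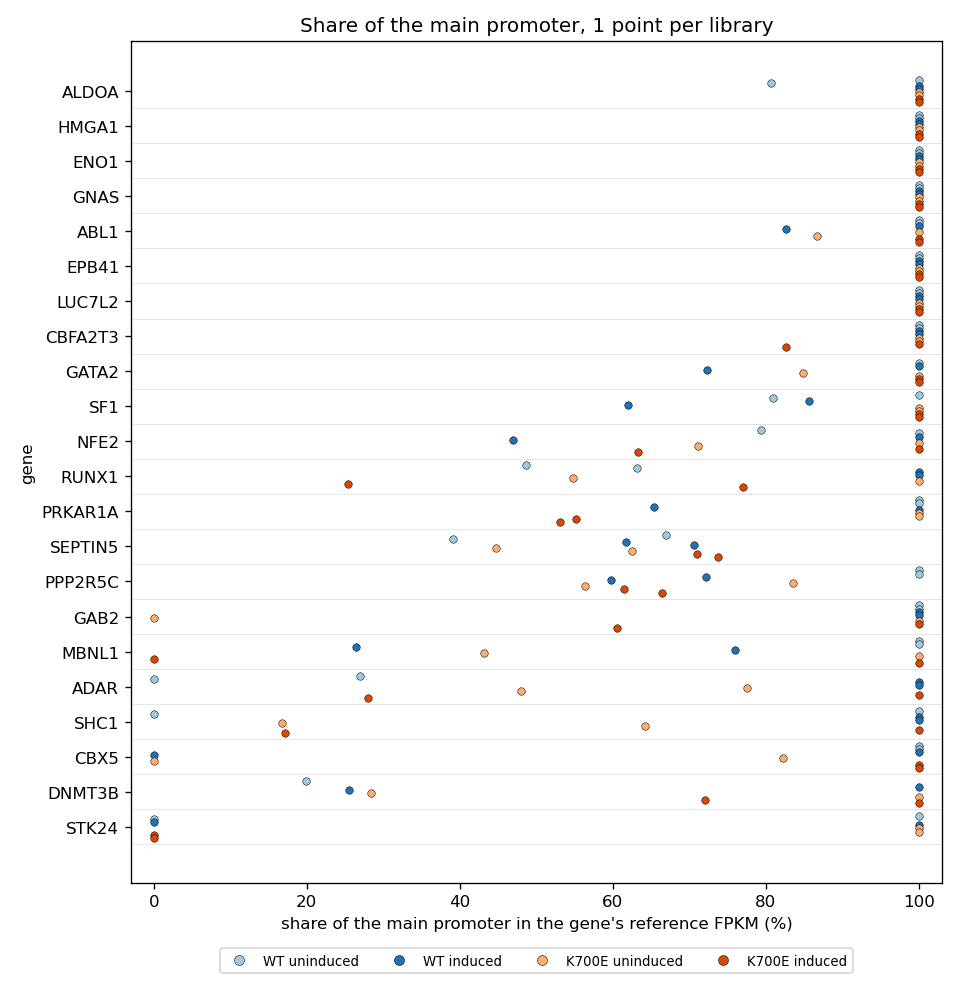
Share of the main promoter in the gene's reference FPKM (x axis, %) for 22 genes (y axis), 1 point per library, coloured by group. Genes such as HMGA1, ENO1, GNAS and EPB41 have all points at 100%, while SHC1, ADAR and CBX5 have points from 0 to 100%.

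Of 38 erythroid genes listed, 11 were members. Among these, 6 were above 0 in all libraries (NFE2, RUNX1, CBFA2T3, EPB41 and SLC11A2 among them) and 2 kept the same highest promoter in each, EPB41 and CBFA2T3.

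NFE2, an erythroid and megakaryocytic transcription factor, leaned to its upstream promoter. The FPKM of promoter 1 were 80.9, 83.2, 104, 93.6, 104, 45.6, 53.2 and 167, in the order of both libraries each of K700E_induced, K700E_uninduced, WT_induced and WT_uninduced, and promoter 2 was above 0 in 4 libraries at 13.8 to 51.6. RUNX1 has a distal promoter 1 and a proximal promoter 2, 160608 nt apart on chromosome 21. Promoter 2 was above 0 in all libraries, at 9.58 and 33.0 FPKM in K700E_induced, 13.1 and 22.2 in K700E_uninduced, 20.7 and 9.24 in WT_induced, and 13.1 and 30.0 in WT_uninduced. Promoter 1 was above 0 in 5, at 9.83 to 28.2, and was the higher one in K700E_induced replicate 1 and, by a small margin, in WT_uninduced replicate 1.

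Several other erythroid genes had reference transcripts from 1 promoter only, or nearly so. EPB41, the membrane skeleton protein 4.1, used promoter 1 at 46.7 to 88.5 FPKM in all 8 libraries. ANK1, which encodes erythrocyte ankyrin, used its second promoter alone in 7 libraries, at 7.37 to 60.8 FPKM, and was listed at 0 in K700E_uninduced replicate 2, where an assembled transcript started at the same promoter. LMO2, a partner of TAL1 and GATA1, used the downstream promoter alone in 6 libraries at 12.1 to 35.4 FPKM and its reference transcripts were at 0 in both WT_uninduced libraries. There LMO2 had assembled transcripts with first exons outside the reference, at 12.3 and 7.84 FPKM. TFR2, the second transferrin receptor, had reference transcripts from promoter 1 in 5 libraries. An assembled first exon of TFR2 outside the reference was listed in WT_induced replicate 1 and WT_uninduced replicate 1, at 30.9 and 32.4 FPKM. With assembled transcripts that began in a reference first exon added, the mean share of the main promoter was 73.5% in TFR2, 89.2% in LMO2 and 92.5% in EPB41. The first exons outside the reference are not part of these shares. CBFA2T3, a corepressor, used promoter 1 alone in 7 libraries and at 82.6% in K700E_induced replicate 2. GATA2 used promoter 2 in the 7 libraries where its reference transcripts were above 0, at 37.6 to 74.3 FPKM, with promoter 3 above 0 in 2 of them, at most 14.4. In the remaining library, WT_uninduced replicate 1, an assembled transcript of GATA2 at 84.6 FPKM had a first exon outside the reference. A different GATA2 first exon outside the reference was listed in K700E_uninduced replicate 2, at 23.6 FPKM. The iron transporter gene SLC11A2 was low (mean 7.61 FPKM) and spread over 3 of its 4 promoters.

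Of 46 textbook genes with alternative promoters, 17 were members, 8 were above 0 in all libraries and 3 of these kept the same highest promoter: ABL1, PRKAR1A and GNAS. ABL1, the kinase of the BCR-ABL1 fusion, was at 80.6 to 115 FPKM on promoter 2 in all 8 libraries. Promoter 1, 121563 nt upstream, was at 12.3 in K700E_uninduced replicate 2 and 20.8 in WT_induced replicate 2 and at 0 elsewhere. The fusion transcript shares most ABL1 exons, so reads of BCR-ABL1 enter these values and the annotated promoter cannot be told apart from the fusion. GNAS, an imprinted gene, was listed on promoter 3 alone, which drives the stimulatory G protein alpha subunit, at 34.6 to 249 FPKM. Its promoters 1 and 2, for NESP55 and the extra-large form, were at 0 in all libraries. Assembled transcripts of GNAS with first exons outside the reference were listed in 3 libraries, at 57.2, 67.1 and 196 FPKM. PRKAR1A, a regulatory subunit of protein kinase A, used promoter 2 at 13.5 to 35.7 FPKM in all libraries, with promoter 3 at 7.66 to 17.7 in 3.

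The remaining textbook genes moved between promoters. SHC1, an adaptor protein gene, has promoter 1 for the p52 and p46 forms and promoter 2, 3736 nt downstream, for p66. Promoter 1 was at 16.5 and 5.71 FPKM in K700E_induced, 3.93 and 22.9 in K700E_uninduced, 35.1 and 18.4 in WT_induced, and 34.2 and 0 in WT_uninduced. Promoter 2 was at 0 and 27.6, 19.5 and 12.8, 0 and 0, and 0 and 44.0 in the same order. Both WT_induced libraries listed promoter 1 alone, and the other groups were split within themselves.

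ADAR, which encodes an RNA-editing enzyme, used promoter 1 at 100% in 3 libraries and at 0% in WT_uninduced replicate 2. RASSF1, a tumour suppressor gene, was listed on promoter 1, which drives the RASSF1A form, in K700E_induced replicate 1 alone, at 21.8 FPKM. Its promoter 2 was above 0 in 5 libraries, at 2.15 or more. DNMT3A was at 0 in 1 library, on promoter 3 in 5 and on promoter 2 in 2 (5.93 and 10.8 FPKM). The related DNMT3B was on promoter 1 in 7 libraries, at 1.96 to 36.1, with promoter 2 at 5.72 to 21.2 in 4 of these. LEF1, a transcription factor of the Wnt pathway, was on promoter 1 in 7 libraries (5.54 to 10.5 FPKM) and on promoter 2, which starts a shorter form, in 5 (5.46 to 13.4), and adding assembled transcripts took its mean main share from 60.3% to 36.2%. TP73, a relative of p53, was on promoter 1 in 4 libraries and on promoter 3 in 3, never on both. NR3C1, the glucocorticoid receptor, was on promoter 3 in 6 and on promoter 2 in 2, CUX1 was on promoter 1 in 6 of 7, and CREM, a cAMP-responsive factor, was listed on 6 of its 7 promoters.

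Members of the shorter lists showed both patterns. Of 20 BCR-ABL signalling genes 6 were members, and 1 of the 4 above 0 in all libraries kept its highest promoter, ABL1. GAB2 was on promoter 2 in 7 libraries at 15.2 to 29.7 FPKM and on promoter 1 alone in K700E_uninduced replicate 1 at 24.5. Of 39 splicing factor genes 4 were members. LUC7L2, a U1-associated factor, used promoter 2 alone among its reference transcripts, at 17.5 to 51.9 FPKM, SF1, the branch point binding protein, used promoter 1 at 60.3 to 121 FPKM in all libraries, and MBNL1 was split between its 2 promoters. With assembled transcripts added, the mean share of the main promoter of MBNL1 went from 68.2% to 37.3%. Of 31 chromatin genes 4 were members and none kept its highest promoter in all libraries: CBX5 was on promoter 1 in 6 libraries at 37.5 to 53.8 FPKM and on promoter 2 alone in the other two (46.3 and 56.7), and the reference transcripts of the remodeller SMARCA4 were at 0 in 4 libraries. With assembled transcripts SMARCA4 was above 0 in all 8, and its mean main share went from 67.4% to 16.8%. Of 26 imprinted genes 6 were members, and GNAS was the one that kept its highest promoter, while GRB10 and BLCAP did not. Over all 1018 genes the median SD of the main share was 35.4 percentage points, against 6.15 over the erythroid, 40.0 over the textbook and 44.0 over the imprinted members. The low erythroid value rests partly on LMO2, ANK1 and TFR2, at an SD of 0 but above 0 in only 6, 7 and 5 libraries. The erythroid members also had a higher median level, 31.6 FPKM against 8.30 over all genes. Of the 6 above 0 in all libraries, 2 kept the same highest promoter, against 215 of 524 over all genes.

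Few genes used several promoters at once. SEPTIN5, a septin gene on chromosome 22, had promoter 1 (start 19701987, hg19) and promoter 2 (start 19705958) above 0 in every library. Promoter 2 was at 237 and 286 FPKM in K700E_induced, 155 and 345 in K700E_uninduced, 233 and 134 in WT_induced, and 236 and 87.5 in WT_uninduced. Promoter 1 was at 97.1 and 102, 192 and 207, 145 and 55.8, and 117 and 136 in the same order. The share of promoter 2 was 39.1% to 73.7% (mean 61.3%, SD 12.7, n = 8). It was higher in both K700E_induced libraries than in any other library, by a small margin over WT_induced replicate 2. The remaining groups overlapped, and groups that do not overlap were common among the genes tested, as given below.

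Other high genes with the steadiest divided use were YWHAZ, SLC3A2, SOCS2, PPP2R5C, CD63 and SEPT9. YWHAZ, a 14-3-3 protein gene, had promoter 3 above 0 in all libraries at 64.2 to 131 FPKM, and its other 4 promoters were each at 0 in several libraries. SLC3A2, the heavy chain of the CD98 amino acid transporter, had promoter 2 at 50.1 to 171 FPKM in all libraries. PPP2R5C, a regulatory subunit of protein phosphatase 2A, had promoter 2 at 31.0 to 73.0 in all and promoter 1 at 10.2 to 42.4 in 6, being at 0 in both WT_uninduced libraries. With assembled transcripts the mean share of promoter 2 went from 75% to 43.7%.

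At the other end were 8 genes at 20 FPKM or more with the largest SD of the main share: CYBASC3, STK24, SORT1, MAFG, MGST1, PSMG2, TOP1MT and CDKN1A. STK24, a serine/threonine kinase gene, was listed on promoter 1 in 4 libraries (11.5 to 26.4 FPKM) and on promoter 2 in the other 4 (19.4 to 38.3), never on both. CDKN1A, the cell cycle inhibitor p21, was on promoter 2 alone in 4 libraries at 15.8 to 55.8 FPKM. MAFG, a small Maf partner of NFE2, was on promoter 1 alone in 4, on promoter 2 alone in 3 and on both in K700E_uninduced replicate 1. In several of the 8 genes, such as STK24, TOP1MT, CDKN1A and MAFG, at least 1 group had its 2 libraries on different promoters.

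**Figure D4:**
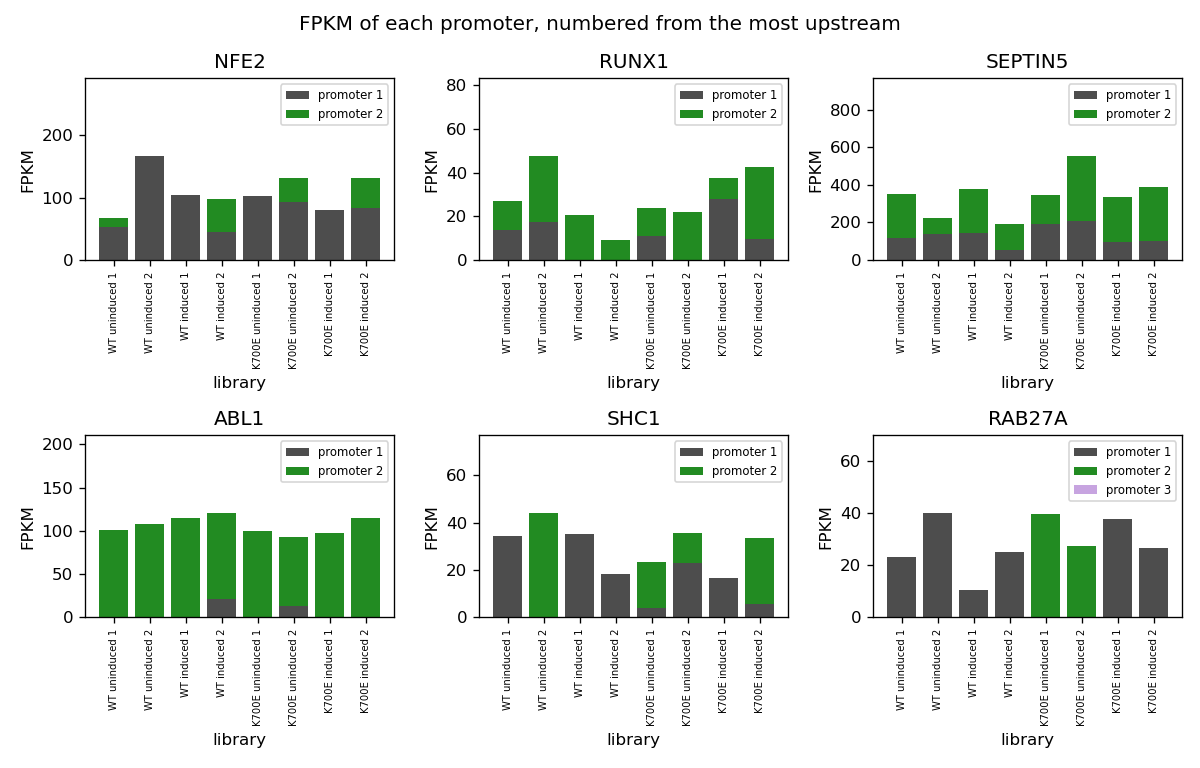
FPKM (y axis) of each promoter in the 8 libraries (x axis, by group and replicate) for 6 genes, as stacked bars coloured by promoter number counted from the most upstream. SEPTIN5 shows both promoters in all libraries and ABL1 promoter 2 in all, while SHC1 and RAB27A switch between libraries.

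Whether the SF3B1 transgenes moved promoter choice was tested in 5 comparisons with limma. The measure was the log2 ratio of main-promoter FPKM to that of the gene's other promoters, each plus 0.5. The test covered the 665 genes with a mean main share of 95% or less, and a library with the gene at 0 entered with a ratio of 0 on the log2 scale. At an adjusted p under 0.05, 0% of genes were called for K700E induction, 0% for WT induction, 0% between the induced lines and 0% between the uninduced lines, and 1 gene (0.15%) in the interaction, the difference between both inductions. At an unadjusted p under 0.05 the counts were 27 genes (4.06%), 37 (5.56%), 25 (3.76%), 33 (4.96%) and 31 (4.66%) in the same order. The main promoter's ratio was higher after K700E induction in 304 genes and lower in 359, and after WT induction higher in 326 and lower in 336.

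The spread between libraries of a group was wide, with a median residual SD of 2.87 for a gene's log2 ratio. In simulated data with normal spread, known amounts were added to the log2 ratio in K700E_induced, for 50 genes per amount. The other 465 of the 665 genes were left unmoved. The fit then called 5 of 50 genes moved by 4, 30 of 50 moved by 8 and 50 of 50 moved by 16 or by 24. With so many genes moved at once the adjusted threshold is more lenient than with few. Most promoter shares in the real data were also 0 or 100%, so detection there may be poorer. The absence of calls therefore does not show that promoter choice stayed the same.

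The single call in the interaction was sensitive to single libraries and settings, since no gene was called in 7 of 8 fits that left out 1 library or in 7 of 11 other settings. The size of the log2 ratios depends on the 0.5 added to values listed at 0, so they are no measure of fold.

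The genes named next were chosen for a small p among genes at 5 FPKM or more whose groups did not overlap, so the lack of overlap is part of the choice, and none passed the threshold. RAB27A, a small GTPase of vesicle transport, was on promoter 2 alone in both K700E_uninduced libraries (39.6 and 27.4 FPKM) and on promoter 1 alone in all 6 others (10.3 to 40.0). Its log2 ratio differed by 12.07 (SE 3.36) on K700E induction and by -12.02 (SE 3.36) between the uninduced lines, with limma adjusted p of 0.723 and 0.838. PHTF2 was on promoter 1 alone in both K700E_induced libraries (11.4 and 13.2 FPKM) and on promoter 2 alone in all others, with a difference of -8.63 (SE 2.76, adjusted p 0.936) on K700E induction.

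On WT induction FKBP2, a peptidyl-prolyl isomerase gene, was on promoter 1 in both induced libraries (76.8 and 30.2 FPKM) and on promoter 2 in both uninduced ones (32.4 and 34.1), a difference of 12.68 (SE 3.71, adjusted p 0.860). ERAP1, an aminopeptidase that trims peptides for MHC class I, was on promoter 2 in both WT_induced libraries (13.4 and 7.70 FPKM) and led by promoter 1 in all others. Between the induced lines, PSMG2, a proteasome assembly chaperone gene, was on promoter 2 in K700E_induced (21.0 and 9.11 FPKM) and on promoter 1 in WT_induced (27.3 and 20.1). PHACTR4 was on promoter 1 alone in both K700E_uninduced libraries (12.6 and 12.5 FPKM) and on promoter 2 alone in the 5 other libraries where it was above 0. ZHX1, TGIF1, CUL2, SLC12A4, NADK and CMSS1 were also among them, with adjusted p of 0.838 to 0.936. Groups did not overlap in 198 of the 665 genes for K700E induction, 209 for WT induction, 203 between the induced lines and 210 between the uninduced lines, so the lack of overlap in these genes was common among the genes tested.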

How the data were processed

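RNA-seq transcript lists of 8 libraries (4 groups of 2) were used. The deposited values are FPKM per transcript with intervals, as the authors' software wrote them; per the submitters' processing notes, the build was hg19 and the tools were Cufflinks, TopHat and CASAVA, with no versions named. Reference models were matched between lists by accession and exons (66 not in all lists were dropped). Of 40549 accessions, 33207 were named by the files, 7030 by RefSeq's table and 312 stayed unnamed. Symbols whose first exons lay apart only across separate loci (213) were set aside. FPKM were summed per first-exon group. Log2 ratios with a pseudocount of 0.5 were fitted with limma 3.58.1 under R 4.3.3 (1 mean per group over all 8 libraries, variance trend on level), Benjamini-Hochberg adjusted over 665 genes, and the fit was tested on simulated data. Promoters were matched to RefSeq's table (GRCh38.p14) by symbol and by the same intron lengths in GENCODE, within 100 nt. Named genes were the members at 5 FPKM or more of the erythroid, textbook and BCR-ABL lists, extremes of level, spread, distance and promoter number, the smallest p with groups apart, and up to 3 per other list; some items this names are not reported here. The members and lists were chosen with earlier results of these data known. Read counts are not used here, so depth limits are known only through coverage per FPKM. Alternatives are in the closing section. Python 3.11.15 and pandas 2.3.3 were used.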

Additional observations from a re-analysis of the deposited data

Results flagged for a closer look

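Transcripts assembled by the authors' software, which the report's values leave out, gave first exons that no reference transcript of the gene has. There were 203 such transcripts in 125 of the member genes, and 3 sites recurred in 4 or more libraries. GSE1 had one in 6 libraries (first exon ending at 85589969 on chromosome 16, forward strand, hg19), at 25.4 to 53.9 FPKM where listed. CMIP had one in 4 libraries (ending at 81668691 on chromosome 16) at 23.6 to 28.9 FPKM. SMYD3 had one in 4 libraries (donor at 246350045 on chromosome 1, reverse strand) at 16.6 to 78.6 FPKM.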

How the results depend on the processing

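The count of 0 called genes in K700E induction, WT induction and both comparisons between lines held in all 20 alternatives of each (leave-one-out range 0 to 0). The interaction had 0 called genes with a pseudocount of 0.1, with no filter on low values, with no limit on the main share, with assembled transcripts added, with 5′ ends at least 5000 nt apart, with gene names from the files alone and with libraries at 0 left out. Leaving out 1 library gave 0 to 1, with 1 only without WT_uninduced replicate 1. The last 2 of the 7 settings were chosen after seeing the data. The cause was not tested. Deviations of the log2 ratios in same-numbered libraries were little correlated between groups (-0.078 to 0.071). Ratios with so wide a spread cannot show that replicate numbers were unpaired. Coverage per FPKM was lower in replicate 2 than in replicate 1 of every group, and HBG1 was higher, while HBZ moved either way. A replicate block kept 1 call in the interaction and 0 in the other comparisons. Genes with the same main promoter in all libraries numbered 138 with 5′ ends 5000 nt apart (661 genes remain) and 226 to 243 on leaving out a library. All-or-none genes numbered 326 at a mean of 5 FPKM or more (672 genes) and 317 with file names alone (641 genes), and 475 to 497 on leaving out a library. Genes using at least 2 promoters throughout numbered 1 at 5 FPKM or more, at 5000 nt and with file names alone, 5 with assembled transcripts, and 1 to 3 on leaving out a library: 1 without K700E_induced replicate 1 or WT_induced replicate 1. Genes with the most upstream promoter as main numbered 294 at 5000 nt, 277 with file names alone and 441 to 457 on leaving out a library. Adding assembled spliced transcripts left the main promoter the same in 937 of the 1018 genes. The same step moved the mean share of the main promoter by over 1.5 times in 6 of the genes named: PPP2R5C from 75% to 43.7%, SMARCA4 from 67.4% to 16.8%, MBNL1 from 68.2% to 37.3%, LEF1 from 60.3% to 36.2%, FOXP1 from 34.5% to 21.6% and PLEC from 37.3% to 24.7%. Depth is known only as coverage per FPKM, so no limit of detection is given.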

Other observations

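Counting also the assembled spliced transcripts that began in a reference first exon, 755 genes were above 0 in all 8 libraries. From reference transcripts alone there were 524. Of the assembled spliced transcripts of member genes with a placed first exon, 2072 began in a reference first exon, 478 began within an internal exon of the reference and 203 began outside the reference exons. The 5 genes that then used at least 2 promoters in every library, CLCN3, PPP2R5C, SEPTIN5, TRAF5 and UBE2D3, were named after their values were seen.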
